A study of Mus musculus with 6 samples.

Results

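The smooth muscle contractile programme was followed through 10 genes, Acta2, Tagln, Myh11, Myocd, Cnn1, Des, Actg2, Lmod1, Myl9 and Mylk, in RNA-seq of whole embryonic mouse lung. The genes come from a list drawn up with earlier results of these data known. Their rows were found by symbol, and all 10 were present among the 24341 genes of the table. The libraries came from lungs of C57BL/6 embryos at E12.5, in 2 groups of 3. Mutant embryos (Mut) were Shh-Cre;Sin3a flox/flox and control embryos (hetCont) were Shh-Cre;Sin3a flox/+, so both groups carried the Cre and a floxed Sin3a allele. Shh-Cre acts in the endoderm-derived epithelium of the lung, not in the mesenchyme from which smooth muscle forms, while each library held RNA of all lung cells. The labels do not say whether a library was 1 embryo or a pool, so p-values measure the spread between these libraries.

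Smooth muscle wraps the airways and blood vessels of the lung. Around the airways it arises from mesenchyme next to the epithelium, and hedgehog, BMP and WNT signals that pass between the layers are known to guide its differentiation. Its force comes from actin filaments and a smooth muscle myosin that is switched on when a calcium-dependent kinase phosphorylates the regulatory light chain. The contractile genes are known as targets of serum response factor (SRF), which binds a DNA element called the CArG box together with myocardin, the product of Myocd. None of the 10 genes separates airway from vascular smooth muscle, and the origin of their RNA cannot be told apart in these libraries.

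Levels are in FPKM, fragment numbers divided by transcript length and library total. Sin3a, the targeted gene, stood at 19.5, 18.6 and 18.6 FPKM in hetCont libraries 1 to 3 and at 18.8, 16.3 and 18.8 FPKM in Mut libraries 1 to 3. Its values over all exons and all lung cells do not check the genotype labels. Summed FPKM was 676961 to 738697 in controls and 627190 to 645621 in mutants, so every mutant total was below every control total. The test between genotypes used these values without rescaling to a common total. Depth relative to control library 1 ran from 0.504 in mutant library 1 to 1.28 in mutant library 2. Absolute depth is unknown, since counts were not used here. Control library 2 and mutant library 1 held Y-linked transcripts (76.7 and 79.5 FPKM summed over Ddx3y, Eif2s3y, Kdm5d and Uty) and the other 4 libraries held at most 0.218 FPKM. All 14 lung mesenchyme markers and all 12 lung epithelium markers passed the filter of a mean of at least 1 FPKM. The summed epithelium markers measured 436 to 521 FPKM in controls and 117 to 173 FPKM in mutants, with 9 of 12 that fell. Without mutant library 2, 5 of these 9 (Epcam, Nkx2-1, Cldn6, Sox2 and Foxa2) lost their call, and Krt8, Krt18, Sftpc and Wfdc2 kept theirs without any 1 library. The summed mesenchyme markers measured 1357 to 1583 FPKM and 1931 to 2247 FPKM, with 3 of 14 that rose (Col1a2, Col3a1 and Pdgfra) and 2 that fell (Foxf1 and Wnt2). The 3 that rose all lost their call without mutant library 2 or without control library 1 or 2, and also with the replicate number as a block, while Foxf1 and Wnt2 kept theirs with any 1 library left out and with the block. Of the other cell types, 1 of 6 tested mesothelial genes (Lrrn4) and 1 of 7 endothelial genes (Kdr) rose, 2 of 10 erythroid genes fell (Hbb-y and Hbb-bt), and 0 of 5 cartilage genes and 0 of 7 neural crest and neuron genes were called. The calls of Lrrn4, Kdr, Hbb-y and Hbb-bt were each lost without 4 or 5 of the 6 libraries in turn, mutant library 2 and control libraries 1 and 2 among them, and with the block. By the test described below, 1.71% of all tested genes rose and 1.63% fell. The marker differences do not tell fewer cells from less RNA per cell, and their part in the smooth muscle values was not tested.

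None of the smooth muscle genes passed the test between genotypes. The test was limma on log2(FPKM + 1), with p adjusted by the Benjamini-Hochberg method over the 12742 genes whose mean reached 1 FPKM, and an adjusted p under 0.05 counted as changed. Of the 9 smooth muscle genes that passed this filter, 0 rose and 0 fell, where 3.34% of all tested genes changed, 1.71% upward and 1.63% downward. At an unadjusted p under 0.05 there was 1, Des, against 23.0% of all tested genes. Des was also the only one of the 9 whose groups did not overlap, against 29.5% of all tested genes. The median log2 change of the 9 was -0.09, and that of all tested genes was -0.01. Of the 9 changes 4 were positive. In an alternative, globins and small RNAs were removed and each library was then rescaled to the same summed FPKM, which the main fit did not do. With this rescaling 7 of the 9 were positive, and the median of all genes moved by 0.11. Lmod1 was under the filter, and its change is taken from the main fit run with no filter.

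**Figure D1:**
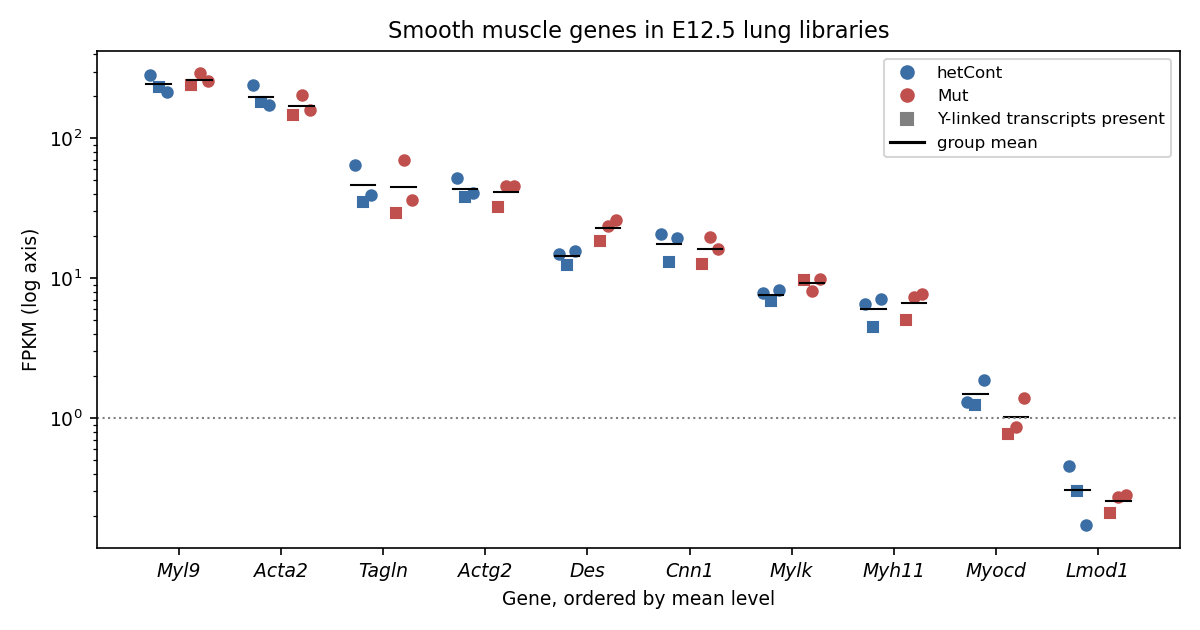
FPKM on a log axis of the 10 smooth muscle genes in each library, ordered by mean level, with hetCont in blue, Mut in red, squares for the 2 libraries with Y-linked transcripts and bars for group means. The dotted line marks the filter of 1 FPKM. The order runs from Myl9 to Lmod1, and Des is the gene whose 3 mutant points all lie above its 3 control points.

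The levels, which are per transcript length, spanned the range from Myl9 at 253 FPKM to Lmod1 at 0.282 FPKM over the 6 libraries. Myl9 and Acta2 ranked first and second in every library. Tagln and Actg2 exchanged places 3 and 4 between libraries and did not differ beyond their spread. Cnn1 held place 5 and Des place 6 in all 3 controls, and they were the other way round in all 3 mutants. Mylk, Myh11, Myocd and Lmod1 followed in that order in every library, although Mylk and Myh11 were close in control library 3 (8.22 and 7.07 FPKM).

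Acta2 encodes smooth muscle alpha-actin, the actin by which smooth muscle is most often identified. It lies on chromosome 19 from 34240336 to 34255373 (GRCm38, the locus in the deposited table). It measured 240, 182 and 173 FPKM in control libraries 1 to 3 and 146, 204 and 159 FPKM in mutant libraries 1 to 3. Control library 1 was the highest and mutant library 1 the lowest, and the groups overlapped. The means were 198 ± 36.2 FPKM and 170 ± 30.2 FPKM (SD, n = 3 per group). This is a log2 change of -0.22 (SE 0.16, limma adjusted p = 0.46), with a 95% interval from -0.61 to 0.16.

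Actg2 encodes the gamma-actin of smooth muscle, known from the gut and other visceral muscle. At its locus on chromosome 6, from 83512909 to 83536251, it measured 52.1, 38.2 and 40.8 FPKM in controls and 32.3, 45.7 and 45.7 FPKM in mutants. As for Acta2, control library 1 was the highest and mutant library 1 the lowest. Its log2 change was -0.09 (SE 0.17, limma adjusted p = 0.80), with a 95% interval from -0.49 to 0.31.

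Muscle actins are so alike in sequence that reads of one could be counted for another. To show how alike, 60 bases of the coding sequence are printed for the 2 smooth muscle actins and for the heart and skeletal muscle actins Actc1 and Acta1 (GENCODE M21 transcripts, GRCm38), with bases that differ from Acta2 in capitals.
Acta2: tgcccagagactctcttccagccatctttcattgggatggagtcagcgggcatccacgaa
Actg2: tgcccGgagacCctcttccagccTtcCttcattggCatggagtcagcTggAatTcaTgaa
Actc1: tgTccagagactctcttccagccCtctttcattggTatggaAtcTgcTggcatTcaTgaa
Acta1: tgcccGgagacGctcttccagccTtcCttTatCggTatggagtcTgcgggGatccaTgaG
The stretch holds 9 differences between Acta2 and Actg2, 8 between Acta2 and Actc1 and 11 between Acta2 and Acta1. Over the whole coding sequence Actg2 was 84.2% identical to Acta2, with no identical run longer than 29 bases. Of the 1961 windows of 75 bases in the Acta2 transcript, 0 matched a transcript of another gene exactly, and of 1259 windows of Actg2 the number was also 0. At the 75-base read length of the labels, an error-free read of either gene therefore had a single exact source among these transcripts. Actc1, which embryonic heart uses, measured 27.1 to 44.7 FPKM in controls and 22.0 to 75.8 FPKM in mutants (limma adjusted p = 0.90).

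The regulatory light chain gene Myl9 (chromosome 2, 156775464 to 156781657) encodes the myosin subunit whose phosphorylation starts contraction. It measured 284, 234 and 213 FPKM in controls and 239, 291 and 257 FPKM in mutants. The highest control library lay among the mutant values, and the groups overlapped. The log2 change was 0.11 (SE 0.13, limma adjusted p = 0.65), with a 95% interval from -0.19 to 0.41.

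The CArG box is the element through which SRF reaches these genes, so the 250 bases before the start site were searched for it in the RefSeq promoter table (GRCm38.p6), which held 6 of the 10 genes (Acta2, Cnn1, Des, Lmod1, Myl9 and Mylk). The box is CC, 6 bases that are A or T, and GG. It reads the same on both strands, so a single search covers both. An exact box was found in Myl9 alone of the 6, and in 1.467% of all 32851 promoter windows. With 1 base other than A or T allowed in its centre, Acta2 and Myl9 held boxes, as did 8.593% of all windows. These are the windows around the 2 boxes farther from the start site, with the box in capitals.
Myl9, plus strand, chr2:156775278-156775337: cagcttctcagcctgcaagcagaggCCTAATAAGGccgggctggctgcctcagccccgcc
Acta2, minus strand, chr19:34255423-34255482: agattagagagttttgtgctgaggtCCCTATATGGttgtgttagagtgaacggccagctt
The Myl9 box is exact and starts 161 bases before the start site, and the Acta2 box has 1 mismatch and starts 84 bases before it. Both genes, the most abundant of the 10, had groups that overlapped. No match in the other 4 says only that these letters are not in that window.

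Myh11 encodes the smooth muscle myosin heavy chain, a marker of differentiated smooth muscle, and lies on chromosome 16 from 14194527 to 14291408. It measured 6.51, 4.49 and 7.07 FPKM in controls and 5.04, 7.29 and 7.74 FPKM in mutants. The lowest library of each group was the one with Y-linked transcripts. Its log2 change was 0.13 (SE 0.20, limma adjusted p = 0.73), with a 95% interval from -0.33 to 0.59. Without control library 2 the change turned to -0.035.

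Mylk encodes the light chain kinase that acts on the product of Myl9. It measured 7.89, 6.86 and 8.22 FPKM in controls and 9.76, 8.12 and 9.96 FPKM in mutants, at a locus on chromosome 16 from 34784950 to 35002434. Mutant libraries 1 and 3 were above all controls, while mutant library 2 lay between control libraries 1 and 3. Its log2 change was 0.25 (SE 0.12, limma adjusted p = 0.27), with a 95% interval from -0.03 to 0.53. Only 3.303% of the 75-base windows of its transcript also occurred in another gene.

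Tagln encodes transgelin (SM22), an actin-binding protein made early in smooth muscle differentiation. It measured 64.4, 35.3 and 39.2 FPKM in controls and 29.1, 69.7 and 36.2 FPKM in mutants. Control library 1 and mutant library 2 stood above the other 4 libraries, 1 in each group, and its deviations from the group means were the widest of the 10 genes. The mutant minus control log2 change was -0.09 (SE 0.34, limma adjusted p = 0.90), and its 95% interval, from -0.89 to 0.70, leaves a wide range of differences. Its locus on chromosome 9, from 45863691 to 45936058, also holds Pcsk7 and Rnf214. Of its 75-base windows 40.894% occurred in another GENCODE gene, mostly in the gene model Gm48529, which is not among the genes listed at this locus. Whether the counting of the deposited values split such reads is not known, so its level is uncertain to that extent.

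Calponin, the product of Cnn1, binds actin and damps the myosin motor. Cnn1 measured 20.6, 13.0 and 19.5 FPKM in controls and 12.6, 19.8 and 16.1 FPKM in mutants. The 2 libraries with Y-linked transcripts were the lowest, 1 in each group, and the groups overlapped. A log2 change of -0.12 (SE 0.21, limma adjusted p = 0.78) separated the means, with a 95% interval from -0.61 to 0.37. Its locus in the table, on chromosome 9 from 22055460 to 22389206, holds 15 other genes and is far longer than the GENCODE gene (22099216 to 22109630), yet 0 of its 2307 windows occurred in another gene.

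Lmod1 encodes leiomodin, which starts new actin filaments in smooth muscle. It measured 0.456, 0.30 and 0.172 FPKM in controls and 0.209, 0.273 and 0.284 FPKM in mutants. The highest and the lowest library were both controls. With no filter on low values the log2 change was -0.055 (SE 0.085, limma adjusted p = 0.78). At these levels a library holds few fragments of the gene, and the 2 shallowest libraries, control library 3 and mutant library 1, had its 2 lowest values.

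Des encodes desmin, the intermediate filament protein of muscle cells and pericytes, and was the 1 gene of the 10 whose groups did not overlap. It lies on chromosome 1 from 75360292 to 75375015 and measured 15.0, 12.4 and 15.7 FPKM in controls and 18.5, 23.7 and 26.0 FPKM in mutants. Every mutant library was above every control library, and the group means were 14.4 ± 1.76 and 22.7 ± 3.87 FPKM (SD, n = 3 per group), a ratio of 1.58. The log2 change was 0.62 (SE 0.15, 95% interval from 0.27 to 0.97), but the limma adjusted p was 0.066, above the threshold. An exact permutation test of its 6 values gave p = 0.1 (2-sided), the smallest that 3 against 3 libraries can give. Without mutant library 1 the adjusted p was 0.033, and with the other libraries left out in turn it was up to 0.23. With a covariate for Y-linked transcripts it was 0.028. With globins and small RNAs removed and libraries rescaled to a common total it was 0.031. Other alternatives raised it, to 0.11 with no filter on low values, 0.082 with no variance trend and 0.15 with the replicate number as a block. The overlapping gene model Gm15179 was listed at no more than 0.332 FPKM in any library, and only 5.01% of the windows of Des occurred in it.

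Set against the other muscle genes of the same library, a comparison chosen after the values were seen, Des per Acta2 measured 0.062, 0.068 and 0.091 in controls and 0.127, 0.117 and 0.163 in mutants. Des per Cnn1 measured 0.728, 0.951 and 0.806 in controls and 1.47, 1.2 and 1.61 in mutants. These ratios do not depend on how libraries are scaled. The groups did not overlap for 6 of the 9 ratios (over Acta2, Myh11, Myocd, Cnn1, Actg2 and Myl9) and overlapped for 3 (over Tagln, Lmod1 and Mylk). All 9 share Des, whose own groups did not overlap, so they are not 9 separate observations. For Des per Acta2 an exact permutation test gave p = 0.1 (2-sided), or 0.45 adjusted over the 9 ratios to Acta2. Des per Mylk measured 1.90, 1.80 and 1.91 in controls and 1.89, 2.92 and 2.61 in mutants, where mutant library 1 was among the controls. Des per Tagln measured 0.232, 0.351 and 0.401 in controls and 0.636, 0.341 and 0.719 in mutants, where mutant library 2 lay below control libraries 2 and 3. Separation relative to Acta2 was not particular to Des. Myl9 measured 119%, 129% and 123% of Acta2 in controls and 164%, 143% and 161% in mutants (exact permutation p = 0.1, adjusted 0.45).

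Desmin is also made in heart muscle and pericytes, so genes of both are given beside it. Of 10 tested heart muscle genes, 2 rose and 0 fell, where 1.71% of all tested genes rose and 1.63% fell. All 10 had positive changes, and their median log2 change was 0.70, against -0.01 for all tested genes. In 4 of the 10 the groups did not overlap, against 29.5% of all tested genes. The 2 that rose encode atrial myosin light chains. Myl7 measured 150, 123 and 124 FPKM in controls and 223, 260 and 232 FPKM in mutants (log2 change 0.85, SE 0.11, limma adjusted p = 0.013). Myl4 measured 20.5, 14.9 and 11.4 FPKM against 32.8, 49.2 and 32.2 FPKM (limma adjusted p = 0.038). With a library left out, these adjusted p-values were up to 0.086 and 0.17. Myl7 lost its call without control library 2 or 3 or mutant library 2, and Myl4 lost it without any library other than mutant library 1. The 19 heart genes summed to 186 to 251 FPKM in controls and 333 to 486 FPKM in mutants. Myl7 was the largest part of this sum, with means of 132 and 238 FPKM. Each gene of the list was above the floor of 0.01 FPKM in at least 1 library. Of the 9 heart genes under the filter, 5 had positive and 4 had negative changes in the fit with no filter. The part of heart muscle RNA in the Des values was not tested.

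Of 11 tested vascular mural genes, 0 rose and 0 fell, 9 had positive changes, and the median log2 change was 0.34. Groups did not overlap for 6 of the 11, against 29.5% of all tested genes. The 16 mural genes summed to 81.3 to 91.2 FPKM in controls and 96.3 to 127 FPKM in mutants. Rgs4, which encodes a regulator of G-protein signalling, measured 6.16, 3.81 and 4.86 FPKM in controls and 10.5, 11.7 and 7.03 FPKM in mutants (limma adjusted p = 0.074). Pdgfrb, the receptor gene that marks pericytes, measured 19.2, 19.0 and 19.0 FPKM in controls and 20.4, 27.1 and 34.0 FPKM in mutants (limma adjusted p = 0.17). Other mural genes had negative changes: Rgs5 and Cox4i2 had log2 changes of -0.13 and -0.043 with groups that overlapped. Vtn, under the filter, measured 0.070 to 0.372 FPKM in controls and was at the floor in all mutants. Ndufa4l2 and Abcc9, also under the filter, were higher in every mutant library. Their means were 0.570 and 0.287 FPKM in controls and 1.36 and 0.583 FPKM in mutants (limma adjusted p = 0.086 and 0.087 with no filter). Higd1b, another pericyte marker, was at the floor in all 6 libraries, and Notch3 measured 12.2 ± 2.06 and 13.1 ± 2.71 FPKM (SD, n = 3). The part of mural cells in the Des values was not tested. In bulk RNA, fewer cells of a type and less RNA per cell cannot be told apart. Of 13 skeletal muscle genes, 4 passed the filter, and 0 rose and 0 fell, with 4 negative changes.

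**Figure D2:**
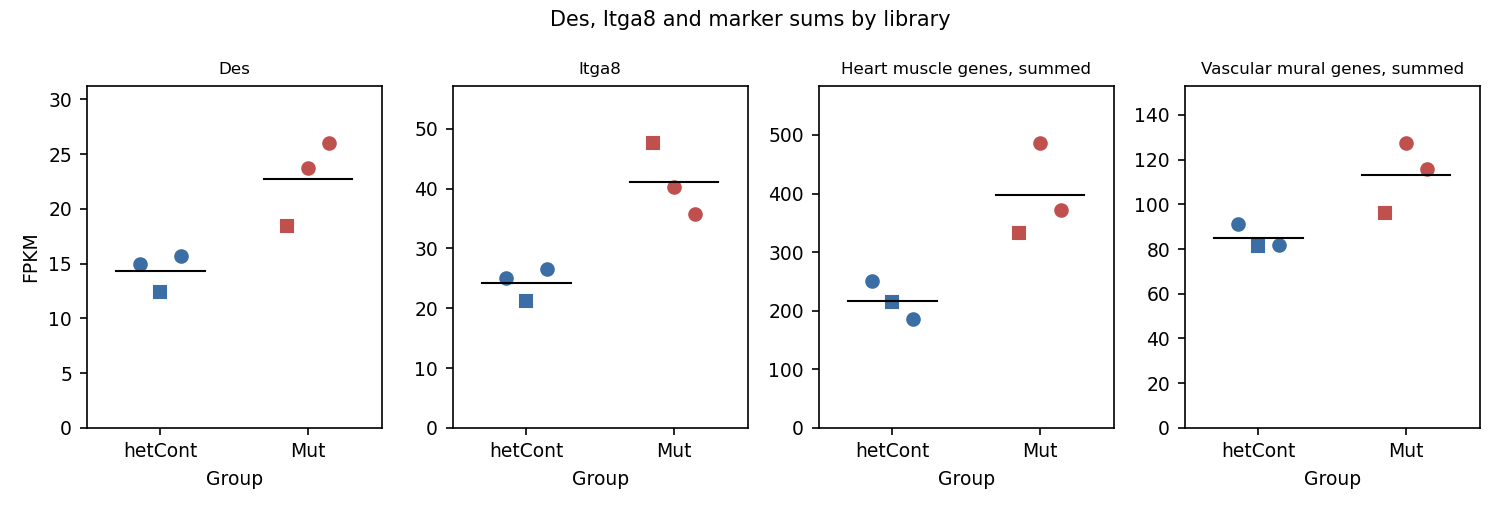
FPKM in each library (points, squares for libraries with Y-linked transcripts) and group means (bars) of Des, Itga8, the 19 summed heart muscle genes and the 16 summed vascular mural genes. In each panel the 3 mutant points lie above the 3 control points, and the vertical axes start at 0. Myl7 is the largest part of the heart muscle sum.

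Myocd encodes myocardin, the SRF partner that drives the smooth muscle programme. It measured 1.31, 1.25 and 1.87 FPKM in controls and 0.770, 0.863 and 1.41 FPKM in mutants, at a locus on chromosome 11 from 65176571 to 65269989. Mutant library 3 lay among the controls, and the other 2 mutant libraries were below all of them. Its log2 change was -0.31 (SE 0.18, limma adjusted p = 0.35), with a 95% interval from -0.72 to 0.11. At about 1 FPKM, log2(FPKM + 1) understates a difference: the ratio of the control mean to the mutant mean was 1.46.

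Of 23 tested regulators of smooth muscle genes, 1 rose and 1 fell, where 3.34% of all tested genes changed. The median log2 change of the 23 was 0.10, and 7 had groups that did not overlap, against 29.5% of all tested genes. SRF itself had no detectable difference, with Srf at 7.72, 8.04 and 9.39 FPKM in controls and 6.61, 8.30 and 8.97 FPKM in mutants (limma adjusted p = 0.80, 95% interval of the log2 change from -0.39 to 0.25). The actin-sensing SRF partners Mkl1 and Mkl2 measured 5.12 ± 0.474 and 9.30 ± 0.952 FPKM in hetCont and 5.51 ± 0.637 and 11.7 ± 1.80 FPKM in Mut (SD, n = 3; limma adjusted p = 0.71 and 0.24). The regulator that fell was Foxf1, a forkhead factor of hedgehog-responsive mesenchyme, at 69.8, 66.7 and 77.2 FPKM against 36.5, 30.7 and 36.7 FPKM (limma adjusted p = 0.0054). The one that rose was Gata6, at 30.8, 26.6 and 30.6 FPKM against 50.8, 53.8 and 48.2 FPKM (limma adjusted p = 0.010). Gata6 is expressed in epithelium as well as in smooth muscle, and it was no longer called without any 1 of the control libraries or without mutant library 2 (adjusted p up to 0.084). Barx1, a homeobox gene of foregut mesenchyme, measured 7.60, 5.15 and 6.11 FPKM against 3.02, 3.99 and 3.69 FPKM (limma adjusted p = 0.064).

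**Figure D3:**
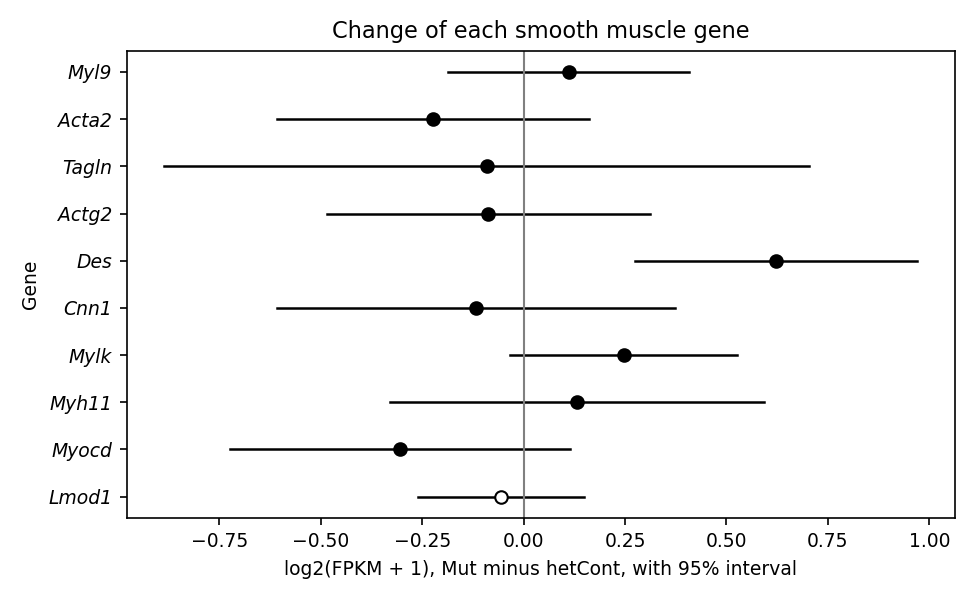
Log2 change of each smooth muscle gene on the log2(FPKM + 1) scale, Mut minus hetCont (points), with its 95% interval (lines, n = 3 per group). The interval of Des, from 0.27 to 0.97, is the only one that does not cross 0, and Lmod1 (open point) comes from the fit with no filter on low values.

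Within each group the smooth muscle genes moved with the library. Control library 1 was above its group mean for 8 of the 9 genes over the filter and control library 2 for 0 of 9. In the mutant group, library 1 was above the mean for 1 of 9, library 2 for 7 and library 3 for 6. The exception in mutant library 1 was Mylk, and in control library 1 it was Myocd. Control library 2 and mutant library 1 were the 2 libraries with Y-linked transcripts, and the mean of the standardised levels of the 9 genes was lowest there (-0.78 and -0.74, against 0.0041 to 0.59 elsewhere). In the 4 libraries that lacked these transcripts, 2 in each group, the log2 change of Des was 0.66 (limma adjusted p = 0.12) and 0 of the 9 genes were called. The other 2 libraries, 1 in each group, allow no test and gave 12.4 and 18.5 FPKM for Des in the control and the mutant. The 2 deepest libraries, mutant libraries 2 and 3, and control library 1 had the highest mean levels. The mean level had a Pearson's r of 0.70 with log2 relative depth. Single genes ran from -0.15 for Mylk and -0.14 for Myocd to 0.84 for Myl9. The part of depth in these levels was not tested.

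**Figure D4:**
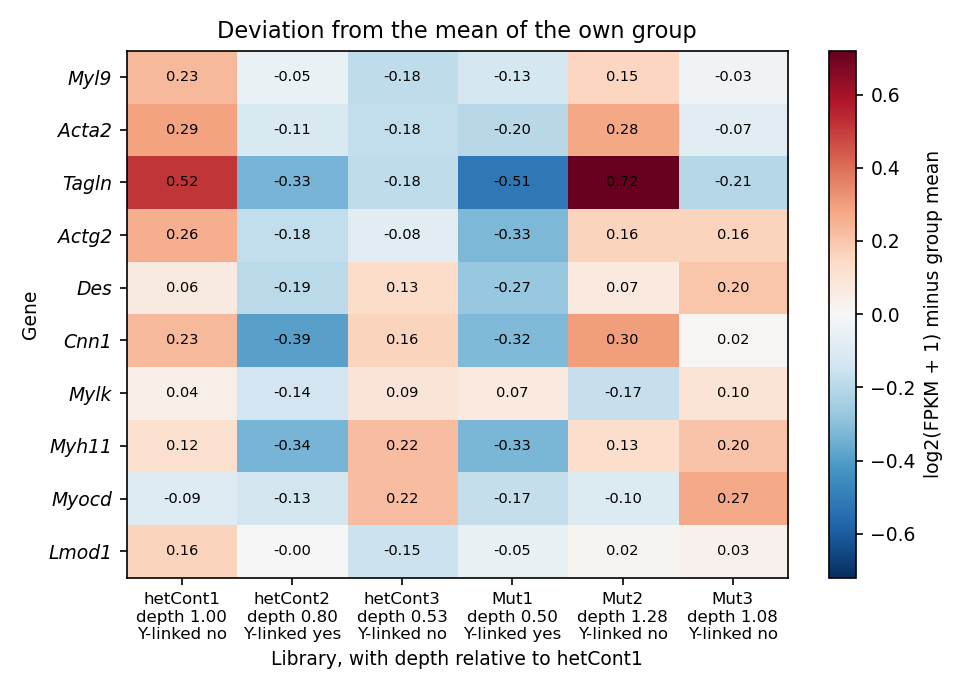
Deviation of each gene from the mean of its own group, in log2(FPKM + 1), for the 6 libraries, with depth relative to control library 1 and the presence of Y-linked transcripts under each column. Most cells of control library 2 and mutant library 1 are negative, and Tagln has the widest deviations, from -0.51 to 0.72.

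Pairs of genes varied together within groups. Over the 45 pairs, Pearson's r of the deviations from the group means was positive for 36, with a median of 0.54 over 6 libraries that share depth and scaling. Myh11 and Des were the closest pair (r = 0.98), followed by Acta2 with Myl9 and with Tagln (both r = 0.97). Mylk was least like Acta2 and Tagln (both r = -0.43). These are descriptions of 6 libraries.

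Each contractile protein belongs to a family with members in other cells, so the smooth muscle share of each family was taken within each library, a comparison added after the data were seen. Acta2 and Actg2 made up 5.24%, 4.34% and 3.99% of the FPKM of 6 actins in controls and 3.53%, 4.84% and 3.44% in mutants, the rest being almost all Actb and Actg1, the cytoskeletal actins of every cell. Of 16 tested relatives of the 10 genes, 0 rose and 0 fell. Myh11 made up 9.18%, 7.85% and 9.51% of 4 myosin heavy chains in controls and 6.95%, 9.83% and 9.52% in mutants. Both shares overlapped between the groups. Cnn1 made up 2.39 ± 0.541% of 3 calponins in controls and 2.26 ± 0.502% in mutants (SD, n = 3), and Tagln 34.3 ± 8.73% and 36.0 ± 7.37% of 3 transgelins. Myl9 made up 43.5 ± 1.32% of 3 regulatory light chains in controls and 46.8 ± 2.44% in mutants. Des made up 4.85%, 4.36% and 5.62% of Des plus Vim in controls and 5.75%, 6.35% and 7.05% in mutants, the only share of the 6 in which the groups did not overlap. Exact permutation tests of the 6 shares gave p = 0.1 for Des and 0.2 to 1 for the others (2-sided, smallest possible 0.1), and adjusted over the 6 the lowest was 0.6.

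**Figure D5:**
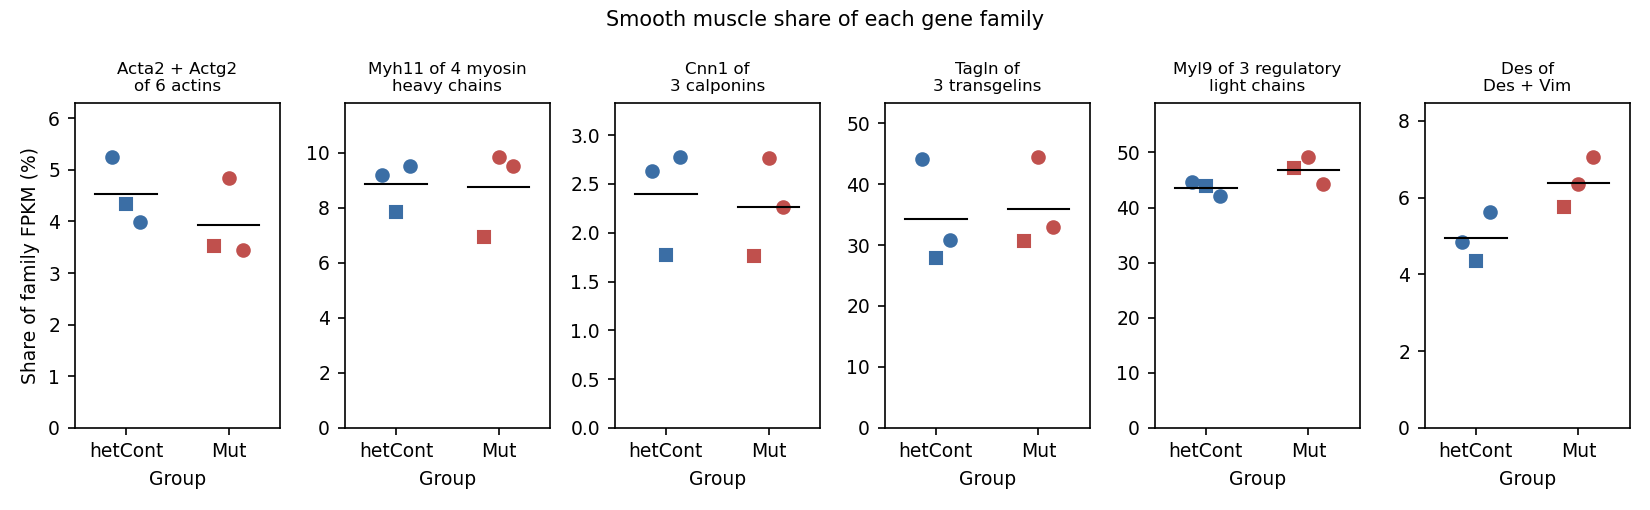
Share of a gene family's summed FPKM held by its smooth muscle member in each library, in percent, with vertical axes that start at 0, squares for libraries with Y-linked transcripts and bars for group means. Groups overlap for actins, myosin heavy chains, calponins, transgelins and light chains, and the Des share is 4.36% to 5.62% in controls and 5.75% to 7.05% in mutants.

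Of 33 other contractile and dense-plaque genes, 30 were tested, of which 1 rose and 0 fell, where 3.34% of all tested genes changed. The median log2 change of the 30 was 0.18. In 8 of the 30 the groups did not overlap, a share near the 29.5% of all tested genes. The gene that rose was Itga8, an integrin subunit gene of smooth muscle and myofibroblasts, at 25, 21.2 and 26.5 FPKM in controls and 47.6, 40.2 and 35.7 FPKM in mutants (log2 change 0.74, SE 0.13, limma adjusted p = 0.035). Its lowest mutant library was above its highest control, and its adjusted p was up to 0.15 without any 1 of the control libraries or without mutant library 2. Ano1, a calcium-activated chloride channel gene of airway smooth muscle and epithelium, measured 7.86, 6.05 and 8.03 FPKM in controls and 4.59, 5.03 and 4.24 FPKM in mutants (limma adjusted p = 0.065). Nexn, an actin-binding protein gene, measured 8.09, 6.99 and 9.62 FPKM against 6.18, 5.86 and 3.97 FPKM (limma adjusted p = 0.12). Fhl1, a LIM protein gene of muscle, averaged 42.0 ± 6.60 FPKM in hetCont and 56.1 ± 3.17 FPKM in Mut (SD, n = 3, limma adjusted p = 0.10).

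Of 18 tested receptors, channels and kinases that control contraction, 0 rose and 0 fell, with 6 at an unadjusted p under 0.05 (23.0% of all tested genes) and a median log2 change of 0.03. Itpr1, which encodes a receptor that releases stored calcium, measured 4.59, 3.97 and 4.55 FPKM in controls and 5.96, 5.65 and 6.04 FPKM in mutants (limma adjusted p = 0.11). Adra1b, an adrenergic receptor gene, measured 1.88, 0.939 and 1.07 FPKM in controls and 2.36, 2.83 and 2.94 FPKM in mutants (limma adjusted p = 0.078). The histamine receptor gene Hrh1 and the adrenergic receptor gene Adra1a were at the floor in all libraries.

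Of 31 tested signals known to pattern airway smooth muscle, 3 rose and 4 fell, against 3.34% of all tested genes that changed. The groups did not overlap for 20 of the 31, against 29.5% of all tested genes, and the median log2 change was -0.08. The 3 that rose were Fgf10, Pdgfra and Boc, and the 4 that fell were the hedgehog targets Hhip, Ptch1 and Gli1 and the ligand gene Wnt2. Hhip measured 6.64, 6.81 and 6.51 FPKM in controls and 2.04, 1.77 and 1.87 FPKM in mutants (limma adjusted p = 0.0016). Without any one library, Hhip and Wnt2 kept their calls, whereas the other 5 lost theirs without any 1 of the control libraries or without mutant library 2 (adjusted p up to 0.19), Ptch1 also without mutant library 3 and Gli1 without mutant library 1. The epithelial ligand genes Shh and Wnt7b were lower in every mutant library without passing the test. Shh, under the filter, measured 1.11, 0.804 and 1.31 FPKM in controls and 0.229, 0.398 and 0.453 FPKM in mutants. Wnt7b, a WNT ligand gene of the epithelium, measured 11.4, 9.40 and 21.1 FPKM against 3.43, 8.26 and 8.47 FPKM (limma adjusted p = 0.18). Bmp4, which is made in both layers, had a log2 change of 0.33 (limma adjusted p = 0.17).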

How the data were processed

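Per the labels' protocols, RNA of dissected lungs was copied into cDNA by SMARTer Ultra Low Input v3 chemistry, which does not mark strand, and sequenced as paired-end 75 bp reads. The deposited values are FPKM per gene. The submitters' processing notes name TopHat, Bowtie2, Cufflinks and mm10 (GRCm38); their versions and the annotation were not given in the sources used here. A value of 0.01 FPKM stood for no measured expression, and 3 genes with a failure mark were left out. Relative depth was read from ratios of values under 0.3 FPKM. The 12742 genes whose mean reached 1 FPKM were compared as log2(FPKM + 1) in limma 3.58.1 (R 4.3.3), moderating variances along an intensity trend. The fit was tested on simulated data. Members and lists were chosen with earlier results of these data known. Outside the members, the text names called genes of each list and up to 4 with the smallest unadjusted p, and the main relatives of the members (Actb, Actg1, Actc1, Acta1, Vim and others); Srf, Mkl1, Mkl2, Notch3, Bmp4, Shh, Wnt7b, Pdgfrb, Rgs5, Cox4i2, Vtn, Higd1b, Hrh1, Adra1a, Speg and some neuron genes were named after their values were seen, or as the members that define a list. Alternatives were pseudocounts, filters, scalings, no trend, a replicate block, a Y-linked covariate and each library left out. The 4 libraries lacking Y-linked transcripts and the family shares were added after seeing the data. Sequence windows and coding alignments used GENCODE M21 with Python 3.11.15 and Biopython 1.88. A few genes that these rules would name are not reported here.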

Additional observations from a re-analysis of the deposited data

How the results depend on the processing

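The direction of Acta2, Myocd, Des, Myl9 and Mylk held under every alternative tried. Tagln, Cnn1 and Actg2 turned positive with globins and small RNAs removed and libraries rescaled to a common total (log2 changes 0.036, 0.0062 and 0.041). This setting, called globin genes left out below, moved the median of all genes by 0.11 and left 7 of 9 smooth muscle genes positive. With a library left out, log2 changes ran from -0.45 to 0.17 for Tagln, -0.035 to 0.30 for Myh11, -0.31 to 0.041 for Cnn1 and -0.18 to 0.076 for Actg2. The 1 called smooth muscle gene was Des, with globin genes left out, with the Y-linked covariate and without mutant library 1 (0 to 1 over libraries left out). All genes called, 426 as reported, numbered 242 with no filter, 1014 with globin genes left out (841 higher and 173 lower, against 218 and 208), 48 in libraries lacking Y-linked transcripts and 52 to 795 with a library left out. Called contractile genes became 0 with no filter and in libraries lacking Y-linked transcripts and 3 with globin genes left out (0 to 1 over libraries left out). Called regulators became 4 with globin genes left out, 0 in libraries lacking Y-linked transcripts and 1 to 2 over libraries left out. Called signals became 4 at a mean of at least 5 FPKM, 1 in libraries lacking Y-linked transcripts and 2 to 7 over libraries left out. With globin genes left out, 1 paralog, 2 contraction control genes and 3 mural genes were called, and the last 2 lists had 0 to 1 over libraries left out. The cause of these differences was not tested.

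The replicate block is a fit on shared numbers only: libraries with the same number did not deviate together (r = -0.089, -0.078 and -0.026). With the block, 52 genes were called in all, 0 contractile genes, 1 regulator and 2 signals, and Des had an adjusted p of 0.15. Lmod1 and other genes under 1 FPKM are limited by depth, most in control library 3 and mutant library 1.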

Other observations

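Speg, a striated and smooth muscle kinase gene that is the next gene after Des on chromosome 1 (75375297 to 75432306), was looked at after the values of Des were seen. It measured 30.3, 30.5 and 33.7 FPKM in controls and 36.8, 40.9 and 39.9 FPKM in mutants (log2 change 0.31, SE 0.089, limma adjusted p = 0.10). Its groups did not overlap, as was so for 29.5% of all tested genes, 14.9% with the mutants higher. Neural crest and neuron genes ran opposite to the smooth muscle genes across libraries: all 7 tested members had a negative Pearson's r with the mean standardised level of the 9 smooth muscle genes (median -0.71 over 6 libraries, against -0.0055 for all other tested genes). Sox10, a neural crest and glial gene, had an r of -0.93. It measured 6.12, 17.2 and 10.2 FPKM in controls and 11.7, 6.02 and 8.65 FPKM in mutants, highest in the 2 libraries with Y-linked transcripts. Stmn2, a neuronal gene, had an r of only -0.27.

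Of 8909 other genes whose mean reached 5 FPKM, 45 had r over 0.9 with the mean of the smooth muscle genes. Among the most alike were Ccdc55, Capzb, Unc119b, Ccdc12, Cyb5d1, Plxnd1, Klf10, Tsc1 and Med18, with r from 0.96 to 0.98 and Spearman's rho from 0.77 to 1. With 6 libraries and so many genes these values describe the libraries and have no test. Of the 30 other contractile genes, 24 had a positive r (median 0.45), with Actn1 the highest (r = 0.78).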
